A study of Homo sapiens with 12 samples.

Results

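The 5 genes of DNA mismatch repair described here are the MutS homologues MSH6 and MSH3 and the MutL homologues MLH3, PMS1 and PMS2. Their probe sets were found by gene symbol in the annotation of the array, whatever their values. This gave 17 of 54613 probe sets, of which 15 carried a single symbol (4 of MSH6, 3 of MSH3, 3 of MLH3 and 5 of PMS1). The other 2 listed PMS2 together with its pseudogene PMS2CL, so no probe set reported PMS2 alone. In 12 microarrays of HD-MB03 cells, a MYC-amplified Group 3 medulloblastoma line, 3 arrays came from each of 4 groups: 1 µM entinostat for 24 h, DMSO for 24 h, 1 µM entinostat for 48 h and DMSO for 48 h. Entinostat is an inhibitor of class I histone deacetylases. DMSO is its solvent. The sample titles name DMSO, while another label calls the DMSO arrays untreated. All arrays derive from this 1 line, grown in RPMI medium with serum, and the 3 arrays of a group were described as biological replicates. Arrays of 1 group correlated at r = 0.993 to 0.995 across probe sets, which are not independent of each other.

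Mismatch repair removes bases that were paired wrongly during DNA replication. MutS heterodimers find the fault: the one that holds MSH6 binds single mispaired bases and very short loops, and the one that holds MSH3 binds longer insertion and deletion loops. MutL heterodimers are then recruited, of which the one with PMS2 nicks the new strand, the one with MLH3 acts mainly in meiotic crossing over and in loop repair, and the one with PMS1 has no well defined part in human repair. EXO1 then removes the stretch that holds the fault, and polymerase delta and DNA ligase 1 restore the strand.

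Among the 15 single-symbol probe sets, 2 were lower and 0 were higher in entinostat than in DMSO at 24 h (limma, adjusted p under 0.05), where 25.2% of all probe sets passed the threshold (12.8% higher and 12.4% lower). At 48 h 5 were lower and 0 were higher, 33.3% of the 15, where 26.1% of all probe sets passed (12.9% higher and 13.2% lower). The fit of both times together called 7 lower and 0 higher, where 32.7% of all probe sets passed (15.7% higher and 17% lower). Leaving out an array moved these counts: 3 were lower at 48 h without DMSO 48 h replicate 1 or 2 or without entinostat 48 h replicate 3, and 1 was lower at 24 h without DMSO 24 h replicate 2, entinostat 24 h replicate 3, any DMSO 48 h replicate or entinostat 48 h replicate 3. The clearest falls were those of MSH3 and MLH3 at 48 h, of 1 PMS1 probe set at both times and of both PMS2/PMS2CL probe sets at both times. The brightest probe sets of MSH6 and PMS1 passed the threshold at neither time. The 2 calls at 24 h were both of PMS1. The 7 over both times included PMS1 236609_at, 1554743_x_at, 1554742_at and 228803_at. Counted by gene, with the brightest probe set not ending in _x_at for each, 0 of 4 passed at 24 h. At 48 h 2 of 4 were lower, and over both times 2 of 4. Of all genes 33%, 33.7% and 40.5% passed. In a bulk measurement, fewer cells with a transcript and less transcript per cell cannot be told apart.

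The median log2 fold change of the 15 probe sets was -0.14 at 24 h and -0.21 at 48 h, against -0.03 and -0.02 over all probe sets. The sign was negative in 11 of 15 at 24 h and in 15 of 15 at 48 h, and the values at 48 h ran between -0.56 and -0.01. Probe sets of 1 gene can read the same transcripts and are not independent of each other. Of the 15, 9 had a mean log2 intensity of 6.5 or more. Of these 9, 1 fell at 24 h (11.1%), where 23% of all probe sets as bright were called lower and 45.3% in either direction. At 48 h 5 of the 9 fell (55.6%), where 25% of all probe sets as bright were called lower and 47.3% were called in either direction. The differences were small: the largest was a fall of 0.56 on the log2 scale.

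**Figure D1:**
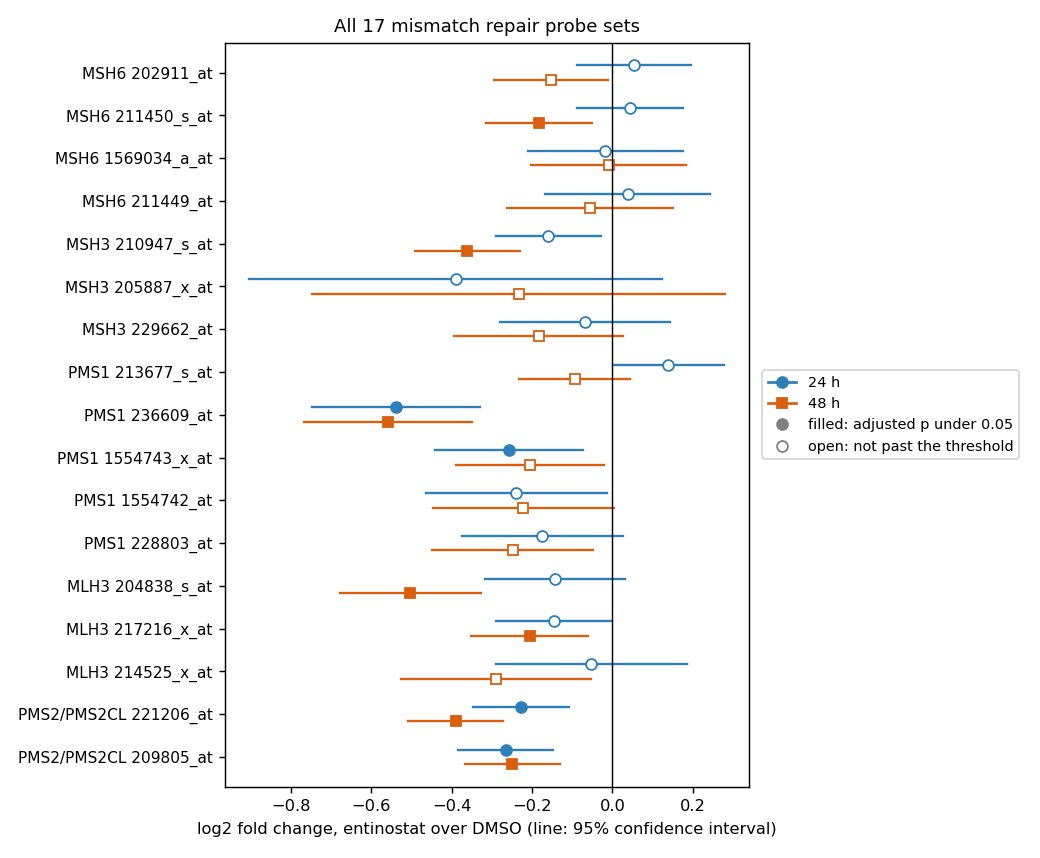
Log2 fold change of entinostat against DMSO (x axis, with 95% confidence intervals) for the 17 probe sets of the mismatch repair genes, at 24 h and at 48 h. Filled points passed the adjusted threshold. At 48 h all 17 points lie below 0, and 7 of them, the 2 PMS2/PMS2CL probe sets included, passed.

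The 3 promoters printed here belong to the genes on which the array results turn: MSH3 and MLH3, which fell at 48 h, and PMS1, whose probe sets gave different results. Each is the 300-base RefSeq window of GRCh38.p14 that starts 250 bases before the gene's start and holds 50 bases after it, written in the direction of transcription. Capitals mark matches on either strand to 5 motifs: the E2F site TTTNGCGC, the GC box GGGCGG, the CCAAT box (its letters), the NRF1 site (GCGC and TGCGC with any 1 base between them) and the E-box CACGTG. The windows lie at chr5:80654402-80654701 (plus strand) for MSH3, chr14:75051418-75051717 (minus strand) for MLH3 and chr2:189784200-189784499 (plus strand) for PMS1.
MSH3: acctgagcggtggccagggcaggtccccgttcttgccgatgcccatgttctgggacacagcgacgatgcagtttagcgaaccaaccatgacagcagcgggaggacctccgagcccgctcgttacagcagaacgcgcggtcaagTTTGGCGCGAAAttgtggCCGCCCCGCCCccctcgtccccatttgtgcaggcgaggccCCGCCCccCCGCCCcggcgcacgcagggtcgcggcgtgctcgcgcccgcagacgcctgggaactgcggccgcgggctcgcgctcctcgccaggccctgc
MLH3: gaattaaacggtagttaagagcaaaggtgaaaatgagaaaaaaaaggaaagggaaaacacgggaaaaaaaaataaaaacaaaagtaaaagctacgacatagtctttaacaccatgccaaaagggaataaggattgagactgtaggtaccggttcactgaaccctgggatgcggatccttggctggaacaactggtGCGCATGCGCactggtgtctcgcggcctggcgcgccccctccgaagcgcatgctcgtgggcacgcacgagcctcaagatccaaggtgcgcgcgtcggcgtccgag
PMS1: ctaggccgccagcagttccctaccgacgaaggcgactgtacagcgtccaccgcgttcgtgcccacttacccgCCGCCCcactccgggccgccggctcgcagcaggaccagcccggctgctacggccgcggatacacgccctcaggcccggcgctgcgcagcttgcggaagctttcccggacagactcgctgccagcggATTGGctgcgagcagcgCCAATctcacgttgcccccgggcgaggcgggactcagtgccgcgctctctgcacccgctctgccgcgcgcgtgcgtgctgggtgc
The MSH3 window held a pair of overlapping E2F sites, one on each strand, with first bases at -107 and -103 from the start site, a motif found in 1.81% of 27305 promoter windows of the same length. It also held 4 GC boxes, of which the first pair share a base (44.5% of windows hold at least 1) and was 71% G and C. The MLH3 window, at 51% G and C, held none of the motifs but 1 NRF1 site at -55, a motif of 6.29% of windows. PMS1 had 2 CCAAT boxes, at -52 and -35 (35.7% of windows hold one), and 1 GC box. In the windows not printed, MSH6 had 5 GC boxes and 1 CCAAT box, and PMS2 had 2 GC boxes and 3 CCAAT boxes. No E-box was found in the 5 windows, against 7.41% of all windows. These are matches of letters and not measured binding sites.

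MSH6 (chr2:47783145-47810101, plus strand), the subunit for single mispaired bases, hardly differed at 24 h and was slightly lower in entinostat at 48 h in 1 of its 2 bright probe sets. Probe set 202911_at read 2345, 2538 and 2491 in entinostat at 24 h, against 2268, 2473 and 2364 in DMSO at 24 h (normalized intensity, arbitrary units, replicates 1 to 3). It read 1977, 2247 and 2186 in entinostat at 48 h, against 2310.0, 2519 and 2293 in DMSO at 48 h. The groups overlapped at 24 h, while at 48 h every entinostat array lay below every DMSO array. The difference was 0.05 on the log2 scale at 24 h (SE 0.06, adjusted p = 0.632, 95% interval -0.09 to 0.19) and -0.15 at 48 h (SE 0.06, adjusted p = 0.113), so neither passed the threshold. With a replicate block in the fit, the difference at 48 h did pass (limma, adjusted p = 0.0429).

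The second bright MSH6 probe set, 211450_s_at, gave the same picture with a call at 48 h. It read 1141, 1179 and 1252 in entinostat at 24 h, against 1110.2, 1206 and 1148 in DMSO at 24 h. After 48 h the values were 979.6, 1035 and 1039 in entinostat, against 1131, 1235 and 1104 in DMSO. The groups were mixed at 24 h and apart at 48 h. No difference was called at 24 h (log2 fold change 0.04, adjusted p = 0.681), and the value was -0.18 at 48 h (SE 0.06, adjusted p = 0.0419). That call was lost, with values between -0.20 and -0.13 and adjusted p between 0.0549 and 0.164, when any of 7 arrays was left out: DMSO 24 h replicate 3, DMSO 48 h replicates 1 and 2, entinostat 24 h replicate 2 or any entinostat 48 h replicate. It was also lost with 30 units subtracted (adjusted p = 0.103) or with only the arrays of 48 h (adjusted p = 0.0782).

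Within entinostat, MSH6 211450_s_at was lower at 48 h than at 24 h by 0.23 (log2, adjusted p = 0.0427), the only 1 of the 15 probe sets past the threshold in this comparison, where 7.19% of all probe sets passed and 3.88% were lower. Leaving out any of 9 arrays ended the call, namely any of the 6 entinostat arrays, DMSO 24 h replicates 1 and 3 or DMSO 48 h replicate 1, with adjusted p of up to 0.15. Subtracting 30 units from every intensity ended it as well (adjusted p = 0.12). The same comparison for 202911_at gave -0.20 (adjusted p = 0.0862) with no overlap between the entinostat arrays of 48 h and of 24 h. It passed with a replicate block in the fit (adjusted p = 0.0329). The remaining MSH6 probe sets, 1569034_a_at and 211449_at, read between 46.2 and 70.3 on all 12 arrays, below the array medians of 80.7 to 81.9, and their log2 fold changes of entinostat against DMSO, between -0.06 and 0.04, did not pass the threshold.

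MSH3 (chr5:80654652-80876815, plus strand), the subunit for longer loops, was lower in entinostat at 48 h. Its probe set 210947_s_at read 195, 209.6 and 211 in entinostat at 24 h, against 212, 236 and 239.9 in DMSO at 24 h. The 48 h arrays gave 186, 194 and 194 in entinostat, against 242, 255 and 241 in DMSO. All entinostat arrays lay below the DMSO arrays of the same time, narrowly at 24 h and by a wide gap at 48 h. MSH3 thus differed by -0.16 on the log2 scale at 24 h (SE 0.06, adjusted p = 0.0739) and -0.36 at 48 h (SE 0.06, 95% interval -0.49 to -0.23, adjusted p = 0.000557), a change of -22.1%.

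The call of MSH3 210947_s_at at 48 h was kept whichever array was left out, with values between -0.38 and -0.33. At 24 h it stayed just short of the threshold. It passed without DMSO 24 h replicate 1 (-0.22, adjusted p = 0.0206) or with quantile normalization (adjusted p = 0.0453). It also passed when dim probe sets were not tested (adjusted p = 0.0479) or with a replicate block in the fit (adjusted p = 0.0429). The difference between the effects at 24 h and 48 h was -0.20 (unadjusted p = 0.0345, adjusted p = 0.335). Over both times the log2 fold change was -0.26 (adjusted p = 0.000973).

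The other MSH3 probe sets gave no call at either time. In 205887_x_at, whose ending marks probes that can bind transcripts of other genes, entinostat 24 h replicate 3 read 61, against 140.1 and 137 in the other entinostat 24 h arrays and 128, 143 and 144 in DMSO at 24 h. At 48 h it read 124, 137 and 122 in entinostat, against 145, 155 and 149 in DMSO, with no overlap. The log2 fold change at 24 h was -0.39 (SE 0.24, adjusted p = 0.285), and it was 0.01 (adjusted p = 0.978) without that array. At 48 h it was -0.23 (adjusted p = 0.562), with an adjusted p of 0.0198 for the same value without that array. Probe set 229662_at read between 48.6 and 68.1 on all arrays and did not pass the threshold (-0.07 at 24 h and -0.18 at 48 h).

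**Figure D2:**
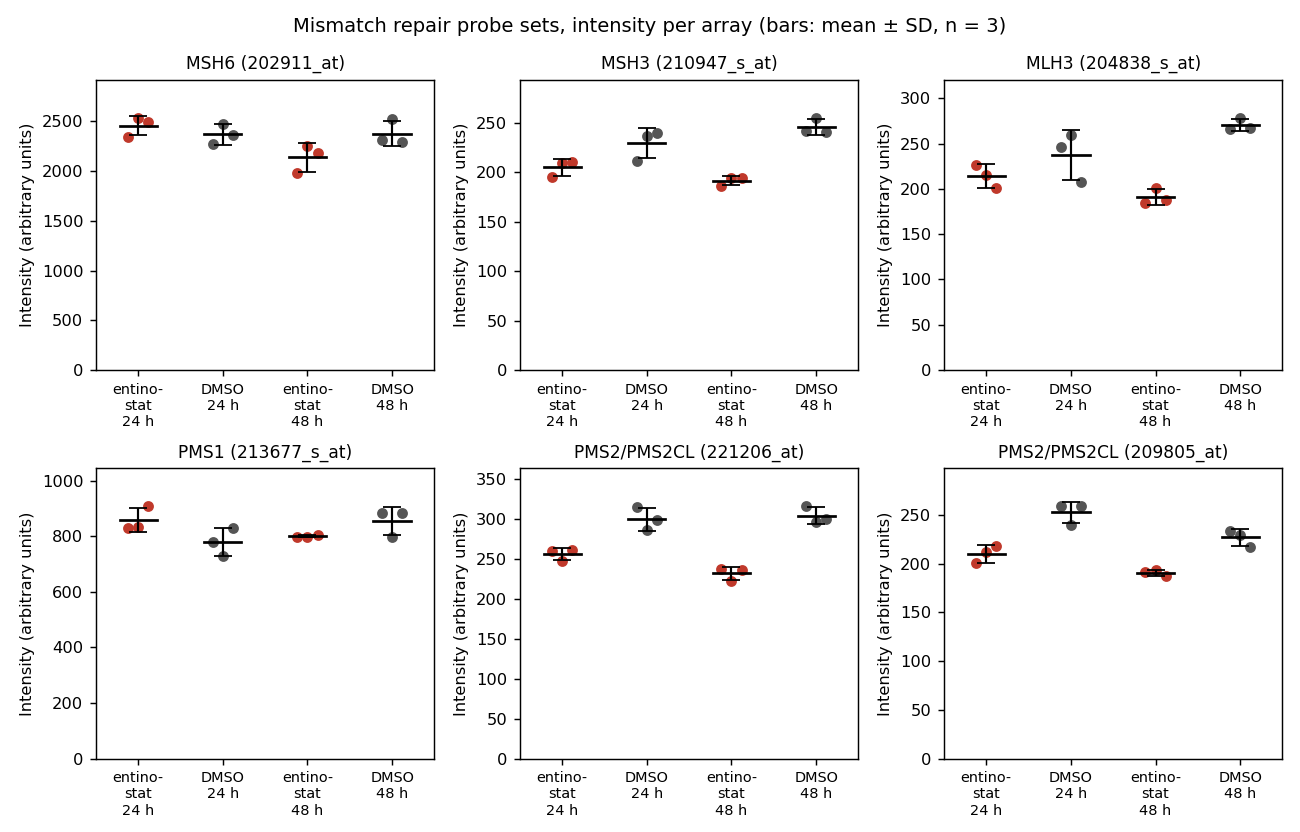
Normalized intensity (y axis, arbitrary units) on each array for the representative probe sets of MSH6, MSH3, MLH3 and PMS1 and for the 2 PMS2/PMS2CL probe sets, by group (x axis), with mean and SD bars (n = 3). For MSH3 and MLH3 the entinostat 48 h arrays read at most 201 and the DMSO 48 h arrays at least 241.

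MLH3 (chr14:75013775-75051467, minus strand), the MutL homologue best known from meiotic recombination, was lower in entinostat at 48 h as well. Its probe set 204838_s_at read 227, 216 and 201 in entinostat at 24 h, against 246, 259.8 and 207 in DMSO at 24 h. It read 184, 201 and 188 in entinostat at 48 h, against 266, 279 and 268 in DMSO at 48 h. The groups overlapped at 24 h and were far apart at 48 h. In log2 units the difference was -0.14 at 24 h (SE 0.08, adjusted p = 0.242) and -0.50 at 48 h (SE 0.08, 95% interval -0.68 to -0.33, adjusted p = 0.000413), and the change at 48 h amounted to -29.4%.

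DMSO 24 h replicate 3, at 207, was the low array of its group, and without it the difference at 24 h was -0.24 (adjusted p = 0.0261). Leaving out any 1 array kept the call at 48 h, with values between -0.54 and -0.48. The 4 group means ran in order 191 ± 9.0 in entinostat at 48 h, 214 ± 13.0 in entinostat at 24 h, 238 ± 27.3 in DMSO at 24 h and 271 ± 7.05 in DMSO at 48 h (SD, n = 3 each). No neighbours in this order differed past the threshold: the adjusted p was 0.293 for 48 h against 24 h in entinostat, 0.242 for entinostat against DMSO at 24 h and 0.382 for 48 h against 24 h in DMSO. The effect at 48 h minus that at 24 h was -0.36 (SE 0.11, unadjusted p = 0.00801, adjusted p = 0.175), the largest such difference among the 15 probe sets and not past the threshold.

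The MLH3 probe sets ending in _x_at had smaller differences at 48 h. Probe set 217216_x_at read 158, 152 and 160.3 in entinostat at 24 h, against 169, 185 and 168 in DMSO at 24 h. At 48 h it read 157, 164 and 154 in entinostat, against 186, 197 and 166 in DMSO. The groups did not overlap at either time. Only the later difference passed, with -0.15 at 24 h (log2, adjusted p = 0.144) and -0.21 at 48 h (SE 0.07, adjusted p = 0.0377). Without DMSO 48 h replicate 1 or 2, or without entinostat 48 h replicate 1 or 3, it stood between -0.20 and -0.15 with adjusted p between 0.0939 and 0.152. The call was also lost with 30 units subtracted (adjusted p = 0.0622) or a trended robust variance (adjusted p = 0.0558). With only the arrays of 48 h it was lost as well (adjusted p = 0.0835).

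In MLH3 214525_x_at the entinostat arrays disagreed at 48 h, with 178, 131 and 134 against 182, 184 and 170.3 in DMSO at 48 h. The first entinostat array lay among the DMSO arrays and the others far below them. The log2 fold change at 48 h was -0.29 (SE 0.11, adjusted p = 0.0726), and without entinostat 48 h replicate 1 it was -0.43 (adjusted p = 0.00251). It also passed with a replicate block in the fit (adjusted p = 0.0394) or when dim probe sets were not tested (adjusted p = 0.0476). At 24 h the values overlapped, with 175, 143 and 161 in entinostat and 169, 171 and 155 in DMSO (-0.05, adjusted p = 0.796).

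PMS1 (chr2:189784450-189877629, plus strand), the MutL homologue without a settled role, was reported differently by its probe sets. Its bright probe set 213677_s_at read 829.7, 835 and 908 in entinostat at 24 h, against 779.7, 729 and 829 in DMSO at 24 h. For 48 h the values were 798, 799 and 804 in entinostat, against 883, 798 and 884 in DMSO. The entinostat arrays were all above the DMSO arrays at 24 h, though the nearest pair was 829.7 and 829, and at 48 h the groups overlapped. Neither difference passed: it was 0.14 at 24 h (log2, SE 0.06, adjusted p = 0.144) and -0.09 later (SE 0.06, adjusted p = 0.347). The difference between the effects was -0.23 (unadjusted p = 0.0233, adjusted p = 0.285), and over both times the value was 0.02 (adjusted p = 0.809).

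In PMS1 236609_at, in contrast, entinostat arrays were lower at both times. It read 81.7, 82.3 and 102 in entinostat at 24 h, against 140.0, 116 and 129 in DMSO at 24 h. It read 98.2, 86.4 and 86 in entinostat at 48 h, against 131, 139 and 128 in DMSO at 48 h. No entinostat array reached the lowest DMSO array. This gave a log2 fold change of -0.54 at 24 h (SE 0.10, adjusted p = 0.00101) and -0.56 at 48 h (SE 0.10, adjusted p = 0.000726), changes of -31.1% and -32.1%. These values lie not far above the array medians, where intensity left over from background shrinks a fold change, and with 30 units subtracted from all intensities they were -0.76 and -0.77 (adjusted p = 0.00186 and 0.0015).

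The remaining PMS1 probe sets were dim and had negative values at both times, like 236609_at. Probe set 1554743_x_at read 85.5, 87.2 and 70.0 in entinostat at 24 h, against 92.4, 97.4 and 99.1 in DMSO at 24 h, and 76.1, 89.9 and 80.4 in entinostat at 48 h, against 95, 95.5 and 92.8 in DMSO at 48 h. The groups did not overlap at either time. Its log2 fold change was -0.26 at 24 h (adjusted p = 0.0418), with -0.20 at 48 h (adjusted p = 0.103). The call at 24 h was lost without any of 8 arrays (entinostat 24 h replicate 3, any DMSO 24 h or DMSO 48 h replicate, or entinostat 48 h replicate 3), and without entinostat 24 h replicate 3 the value was -0.16 (adjusted p = 0.158). It was also lost with 30 units subtracted (adjusted p = 0.0534) or with only the arrays of 24 h (adjusted p = 0.0801). At 48 h the threshold was passed without entinostat 24 h replicate 3 (adjusted p = 0.0351) or without entinostat 48 h replicate 2 (-0.27, adjusted p = 0.0437).

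Probe sets 1554742_at and 228803_at of PMS1 passed the threshold only in the fit over both times, at -0.23 (adjusted p = 0.0225) and -0.21 (adjusted p = 0.0204). They read between 57.1 and 85.8 on all arrays. The annotation ties 1554742_at to the same transcript record as 1554743_x_at, so this pair is not independent. It ties 228803_at to the same record as a probe set of the neighbouring gene ORMDL1, 228801_at, which stood at -0.18 over both times (adjusted p = 0.0436). The values of the 5 probe sets thus ran between -0.55 and 0.02 over both times, and which transcripts each one reads was not tested.

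**Figure D3:**
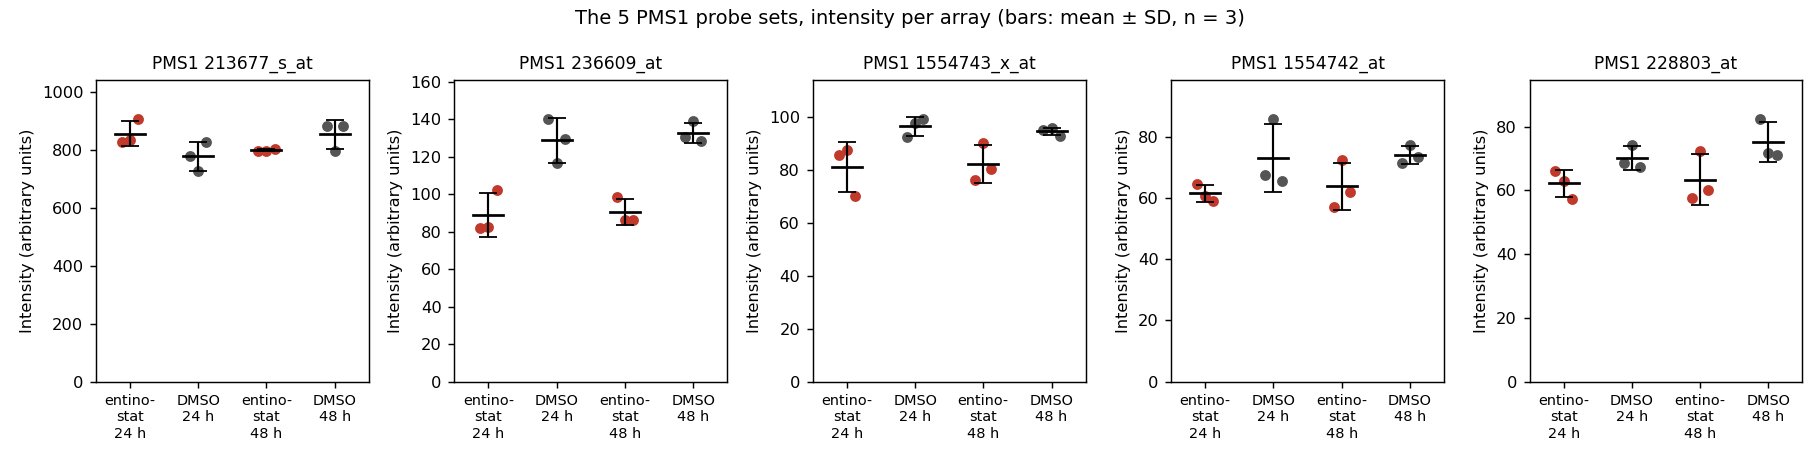
Normalized intensity (y axis, arbitrary units, from 0) of the 5 PMS1 probe sets on each array by group (x axis), with mean and SD bars (n = 3). In 213677_s_at the entinostat 24 h arrays lie above the DMSO 24 h arrays, a difference that did not pass the threshold, while in 236609_at all entinostat arrays lie at or below 102 and all DMSO arrays at or above 116.

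PMS2 (chr7:5970925-6009106, minus strand), the subunit that cuts the new strand, was measured only together with its pseudogene PMS2CL, and the signals of gene and pseudogene cannot be told apart. Probe set 221206_at read 260.3, 248 and 261 in entinostat at 24 h, against 316, 287 and 299 in DMSO at 24 h. The values at 48 h were 237, 223 and 236 in entinostat, against 316, 296 and 300.1 in DMSO. Every entinostat array was below every DMSO array. Both differences passed, with -0.23 at 24 h (log2, SE 0.05, adjusted p = 0.00761) and -0.39 at 48 h (SE 0.05, adjusted p = 0.000145).

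The other PMS2/PMS2CL probe set, 209805_at, fell to a similar extent at both times. It read 200.2, 212 and 218 in entinostat at 24 h, against 259, 240.0 and 259 in DMSO at 24 h. It read 191, 194 and 188 in entinostat at 48 h, against 234, 229.8 and 217 in DMSO at 48 h. The groups did not overlap at either time. The log2 fold change was -0.27 at 24 h (SE 0.05, adjusted p = 0.00277) and -0.25 at 48 h (SE 0.05, adjusted p = 0.00409). No call of the 2 probe sets depended on any single array. The DMSO arrays of 48 h lay below those of 24 h in 209805_at, with a log2 fold change of -0.15 (unadjusted p = 0.0151, adjusted p = 0.288).

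Whether the effect of entinostat changed between 24 h and 48 h was tested with the interaction of treatment and time. None of the 15 single-symbol probe sets passed (limma, 0 of 15 after adjustment, 5 with an unadjusted p under 0.05), against 1.21% of all 54613 probe sets, of which 6965 had an unadjusted p under 0.05, and the PMS2/PMS2CL probe sets did not pass either. The interaction was negative for the representative probe sets of MSH6 (-0.21), MSH3 (-0.20), MLH3 (-0.36) and PMS1 (-0.23). All 4 had an unadjusted p under 0.05, as did 3193 of 19775 genes, and the adjusted p ran between 0.175 and 0.371. In DMSO, 48 h against 24 h gave 0 of 15 past the threshold (1 with an unadjusted p under 0.05, MLH3 204838_s_at), against 0.359% of all probe sets. Groups did not overlap in 8 of 15 probe sets at 48 h, all lower in entinostat, against 37.9% of all probe sets, and in 7 of 15 at 24 h, 6 of them lower in entinostat, against 38.9%.

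Of 22 other genes of the pathway, 21 had a probe set of their own, each represented by its brightest one. Some of the 21 genes had further probe sets, which are not given here. At 24 h 4 of the 21 genes were higher and 4 lower in entinostat, where 33% of all 19775 genes passed the threshold (18.2% higher and 14.8% lower). At 48 h 2 were higher and 10 lower, where 33.7% of genes passed (17.3% higher and 16.5% lower). The median log2 fold change was -0.06 at 24 h and -0.20 at 48 h, beside -0.02 over all genes at each time. Over both times 4 were higher and 9 lower, where 40.5% passed (20.9% higher and 19.6% lower).

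Of the enzymes that remove and rebuild the strand, EXO1 and LIG1 were lower at 48 h and POLD1 at both times. EXO1, the exonuclease, was chosen for mention after its values were seen, as was LIG1, the ligase that seals the nick. EXO1 averaged 243 ± 10.3 in entinostat at 48 h and 325 ± 4.61 in DMSO at 48 h (SD, n = 3 each), with a log2 fold change of -0.42 (adjusted p = 0.000152), after -0.06 at 24 h (adjusted p = 0.525). LIG1 stood at -0.49 at 48 h (adjusted p = 4.97e-05), while its -0.16 at 24 h did not pass (adjusted p = 0.0664). POLD1, the catalytic subunit of polymerase delta, fell by 0.56 at 48 h (adjusted p = 0.00013) and by 0.23 at 24 h (adjusted p = 0.0408), where leaving out any of 6 arrays ended the call: any DMSO 24 h replicate, entinostat 24 h replicate 1 or 2 or DMSO 48 h replicate 2 (-0.26 to -0.18, adjusted p 0.0535 to 0.158). With 30 units subtracted or a trended robust variance, POLD1 did not pass at 24 h (adjusted p = 0.0687 and 0.0535). The other polymerase delta subunits, given to complete the enzyme, passed at neither time. POLD2 stood at -0.09 and 0.07, POLD3 at -0.26 and -0.40 and POLD4 at 0.30 and 0.34. Over both times POLD3 was lower (-0.33, adjusted p = 0.0212). PCNA, the sliding clamp, did not pass at either time (-0.02 and -0.07).

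SETD2, which writes the histone H3 lysine 36 trimethyl mark that MSH6 binds, was lower in entinostat, with -0.35 on the log2 scale at 24 h (adjusted p = 0.00543) and with -0.47 at 48 h (adjusted p = 0.000637). HMGB1, a chromatin protein that takes part in the early steps of repair in reconstituted systems, was lower as well (-0.26 at the earlier time with adjusted p = 0.00101, and -0.42 at the later with 1.99e-05). MCM8, a helicase of the MCM family, passed the threshold only over both times (-0.33, adjusted p = 0.0373), and the call was lost without any of 8 arrays (DMSO 24 h replicate 1 or 2, DMSO 48 h replicate 1 or 3, entinostat 24 h replicate 1 or 2, entinostat 48 h replicate 2 or 3), with adjusted p between 0.0604 and 0.0877. MCM9, in contrast, was called higher in entinostat at 48 h (0.29, adjusted p = 0.0318). At 24 h it was not called (-0.06, adjusted p = 0.718). The call at 48 h was lost without any of 3 of the 12 arrays. MCM9 was chosen for mention after its values were seen.

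Subunits of RPA and of the clamp loader differed in direction. RPA3, the small subunit of the single-strand binding protein RPA, averaged 2197 ± 27.2 in entinostat at 24 h and 1821 ± 94.4 in DMSO at 24 h, and 2239 ± 23.4 in entinostat at 48 h and 1660.1 ± 52.3 in DMSO at 48 h (SD, n = 3 each). It was higher by 0.27 on the log2 scale at 24 h (adjusted p = 0.00152) and by 0.43 at 48 h (adjusted p = 3.75e-05). RFC5 and RFC1, subunits of the clamp loader, rose at 24 h by 0.50 (adjusted p = 0.00017) and 0.36 (adjusted p = 0.00953), and stood at 0.13 and 0.07 at 48 h without passing. Other clamp loader subunits were lower. RFC3 was lower at 24 h by a log2 difference of -0.24 (adjusted p = 0.00218). Its value of -0.18 at 48 h also passed (adjusted p = 0.0144), a call that was lost without entinostat 48 h replicate 3 (-0.16, adjusted p = 0.0579). RFC2 was lower at 48 h (-0.23, adjusted p = 0.00238). RFC4 was called at 48 h (-0.22, adjusted p = 0.0325) but not without DMSO 48 h replicate 1 or 3 or any entinostat 48 h replicate (-0.24 to -0.19, adjusted p 0.0516 to 0.117). With 30 units subtracted, RFC3 and RFC4 did not pass at 48 h (adjusted p = 0.0662 and 0.0745). RPA2, the middle subunit of RPA, was lower at 48 h (-0.22, adjusted p = 0.0121), though not without DMSO 48 h replicate 1 or entinostat 48 h replicate 2 (-0.19 each, adjusted p = 0.0526 and 0.0503). RFC2, RFC3, RFC4 and RPA2 were chosen for mention after their values were seen. POLD4, the small subunit of polymerase delta, passed only over both times (0.32, adjusted p = 0.00773).

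RPA1, the large subunit of RPA, was chosen for mention after its values were seen because it was the only 1 of the 21 partners past the threshold for the interaction, against 1.91% of all genes. It averaged 1806 ± 33.3 in entinostat at 24 h, against 1444 ± 63.1 in DMSO at 24 h, and 1286 ± 17.3 in entinostat at 48 h, against 1478 ± 40.8 in DMSO at 48 h (SD, n = 3 each). The log2 fold change was positive at 24 h, 0.32 (adjusted p = 0.000318), but negative at 48 h, -0.20 (adjusted p = 0.00858), and the interaction was -0.52 (adjusted p = 0.00582). No single array decided these calls, but with 30 units subtracted from every intensity the interaction, at -0.54, no longer passed (adjusted p = 0.0506).

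**Figure D4:**
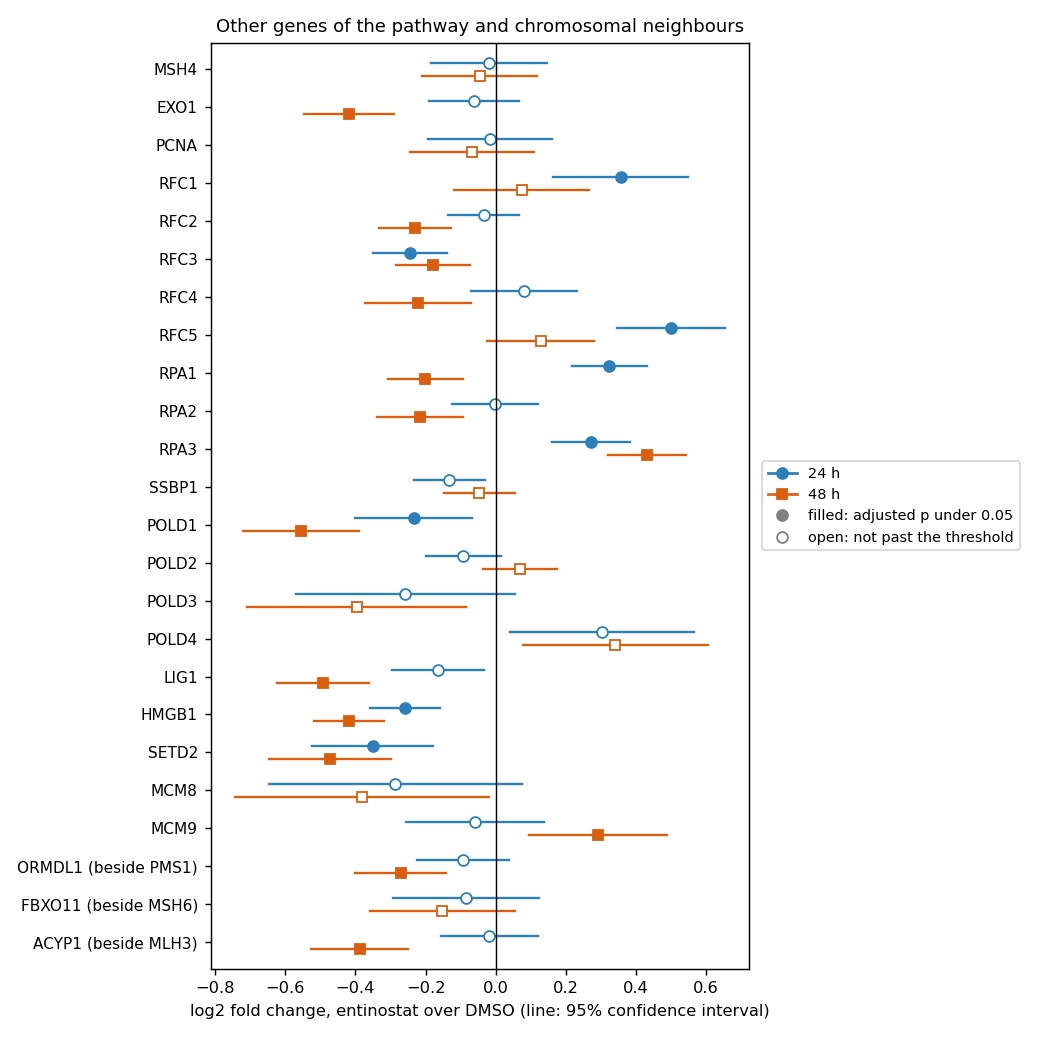
Log2 fold change of entinostat against DMSO (x axis, with 95% confidence intervals) for the 21 measured partners of mismatch repair and 3 chromosomal neighbours of the members, at 24 h and at 48 h. Filled points passed the adjusted threshold. EXO1, LIG1 and POLD1 lie between -0.56 and -0.42 at 48 h, and RPA1 stands at 0.32 at 24 h and -0.20 at 48 h.

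Many genes of this pathway are used most in dividing cells, and proliferation markers moved with the treatment. Over all 19775 genes, 14.8% were lower and 18.2% higher in entinostat at 24 h, and 16.5% lower and 17.3% higher at 48 h. Of 10 listed markers 5 were lower and 0 higher in entinostat at 24 h, and 6 were lower and 0 higher at 48 h. Their summed intensity ran between 14704 and 15398 in entinostat at 24 h, against 17936 to 18850.4 in DMSO at 24 h, and between 13614 and 14256 in entinostat at 48 h, against 17559 to 18301 in DMSO at 48 h. MCM5, a subunit of the replicative helicase, changed most (-1.24 and -0.92), while MKI67 (-0.18 and -0.12) and TOP2A (0.08 and -0.15) did not pass the threshold. No marker was at 0. The part of this shift in the values of MSH3, MLH3, PMS1 and PMS2/PMS2CL was not tested.

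Markers of the line and of other cells were read on the same arrays. MYC averaged 11589 ± 249 in entinostat at 24 h and 11257 ± 335 in DMSO at 24 h, and 12998 ± 256 in entinostat at 48 h and 11546 ± 253 in DMSO at 48 h (SD, n = 3 each). OTX2 group means ran between 5618 and 6995, while EYS and NPR3, also on the Group 3 list, stayed below the array medians, with group means of 44.8 to 47.4 and 70.7 to 78.3. Of the 8 listed Group 3 genes, 3 were lower and 0 higher at 24 h (log2 fold changes of -1.78 for GABRA5, -2.02 for IMPG2 and -0.22 for OTX2). At 48 h 3 were lower (GABRA5 at -2.12, IMPG2 at -1.52 and CRX at -0.44) and 1 was higher, MYC at 0.17. NRL stood at -0.36 and -0.77 without passing. Over all 19775 genes, 14.8% were lower and 18.2% higher at 24 h, and 16.5% lower and 17.3% higher at 48 h. Summed over these 8 genes, of which MYC and OTX2 gave most of the total, the intensity was 18480.0 to 19829 in entinostat at 24 h, against 21676 to 24586 in DMSO at 24 h, and 22267 to 22800.4 in entinostat at 48 h, against 24378 to 26003 in DMSO at 48 h. Summed over 12 markers of leukocytes, endothelium, glia and fibroblasts, it was 821 to 856 in entinostat at 24 h, against 832 to 875 in DMSO at 24 h, and 836 to 858 in entinostat at 48 h, against 861 to 876 in DMSO at 48 h. MBP, the myelin protein with the brightest group means of that list (110.3 to 149), was the only 1 of the 12 past the threshold at 48 h (-0.44, adjusted p = 0.00045), and none passed at 24 h.

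The genes next to the members on the chromosome were looked up, since ORMDL1 and PMS1 start 111 bases apart on opposite strands and ACYP1 lies 1776 bases from the start of MLH3 on the same strand. ORMDL1, a regulator of sphingolipid synthesis, was lower at 48 h in 1 of its 3 probe sets, 223187_s_at (-0.27, adjusted p = 0.00429), while 227548_at and 228801_at did not pass (-0.10 and -0.19, adjusted p = 0.28 and 0.165). At 24 h 223187_s_at stood at -0.09 (adjusted p = 0.317). PMS1 213677_s_at had 0.14 at 24 h and -0.09 at 48 h. ACYP1, an acylphosphatase, read -0.02 at 24 h (adjusted p = 0.884) and fell at 48 h (-0.39, adjusted p = 0.000506), beside -0.14 and -0.50 for MLH3 204838_s_at. FBXO11, an F-box protein whose gene overlaps the end of MSH6 by 3181 bases on the opposite strand, did not pass at either time (-0.08 and -0.15).

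The genes whose log2 values ran most like each member over the 12 arrays were sought among the representatives of 9209 bright genes. R3HDM1 and WBP4 were most like MSH3 (Pearson r = 0.972 and 0.969), HAGH and SLC25A10 most like MSH6 (0.970 and 0.923), PDIA6 and PEX19 most like MLH3 (0.949 and 0.934), and UNC119B and MESD most like PMS1 213677_s_at (0.863 and 0.851). These are descriptions over 4 groups of 3 arrays. The points share the treatment and time groups, and each r is the best of all candidates.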

How the data were processed

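RNA of 12 HD-MB03 cultures was hybridised to Affymetrix Human Genome U133 Plus 2.0 arrays. The authors' deposited values are linear intensity values per probe set. GCRMA is named in the submitters' processing notes (version not given in the sources used here). The authors' methods describe log2 values after GCRMA, whereas the deposited values are linear. Whether GCRMA produced the deposited values was not tested. The lowest value was 36.7, so residual background shrinks fold changes of dim probe sets. Array depth has no read count, and precision is limited by 3 arrays per group.

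Log2 intensities of 54613 non-control probe sets (62 controls and nothing else left out; 2 empty cells, 0 in members) were fitted in limma 3.58.1 (R 4.3.3) with 1 coefficient per group, with an additive model for both times, and an interaction contrast. P-values were Benjamini-Hochberg adjusted over all probe sets (threshold 0.05). They set each difference against the spread between these arrays, all of 1 line, which limma moderates over all probe sets. The test was tested on simulated data. Symbols came from GEO's platform annotation: 41091 probe sets had 1 symbol, 1801 several and 11721 none. Every probe set of a member was reported. The representative of a gene was its brightest single-symbol probe set, not one ending in _x_at where another existed. Up to 4 partners with the largest rise and up to 4 with the largest fall over both times were named. Positions, neighbours and promoters were from RefSeq (GRCh38.p14), in which all 5 members were matched. Members and lists were chosen with earlier results of these data known. The alternatives tried were leaving dim probe sets untested, quantile normalization, centring on the array median, subtraction of 30 units, a trended robust variance, a replicate block, omission of _x_at and _s_at probe sets, fits of 1 time only and leaving out each array.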

Additional observations from a re-analysis of the deposited data

Results flagged for a closer look

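RPA1 201528_at was the 1 result marked for a closer look, because the effect of entinostat differed between 24 h and 48 h by the test of the difference itself. This was the brightest of 3 RPA1 probe sets, and the others are not given here. The interaction was -0.52 on the log2 scale (limma, adjusted p = 0.00582), with effects of 0.32 at 24 h and -0.20 at 48 h. With 30 units subtracted from every intensity it stood at -0.54 and missed the threshold (adjusted p = 0.0506). None of MSH6, MSH3, MLH3, PMS1 and PMS2/PMS2CL passed this test.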

How the results depend on the processing

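Among the 15 single-symbol probe sets, counts past the threshold were 2 at 24 h, 5 at 48 h, 7 over both times, 0 for the interaction, 1 for 48 h against 24 h in entinostat and 0 for the same in DMSO. They were unchanged when arrays were centred on the median. With only probe sets of a mean log2 of 6.5 or more tested, 9 of the 15 were left and 4 passed over both times. MSH3 210947_s_at then also passed at 24 h (adjusted p = 0.0479) and MLH3 214525_x_at at 48 h (adjusted p = 0.0476). Of all such probe sets 48.9%, 51.1%, 59.1%, 3.83%, 18.4% and 1.51% passed in the 6 comparisons as ordered above. With 30 units subtracted, 1 passed at 24 h, 3 at 48 h and 0 for 48 h against 24 h in entinostat, and of all probe sets 0.253% passed for the interaction, 4.59% for 48 h against 24 h in entinostat and 0.0476% in DMSO. When those ending in _x_at or _s_at were omitted, 7 of the 15 were left, with 1 past at 24 h, 1 at 48 h, 3 over both times and 0 for 48 h against 24 h in entinostat. With only the arrays of 24 h, 1 passed. With only those of 48 h, MSH6 211450_s_at and MLH3 217216_x_at lost their calls (adjusted p = 0.0782 and 0.0835). MSH3 205887_x_at gained one there (adjusted p = 0.0348). With a trended robust variance, MLH3 217216_x_at missed the threshold at 48 h (adjusted p = 0.0558).

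Leaving out 1 array at a time gave 1 to 2 at 24 h, 3 to 7 at 48 h, 7 over both times, 0 for the interaction, 0 to 1 for 48 h against 24 h in entinostat and 0 in DMSO. Among single values of the member probe sets, 29 of 1224 lost a call and 9 gained one when an array was left out, and of 610 under the other settings 8 lost and 8 gained one. No value past the threshold changed sign. The main fit did not pair arrays by replicate number. Correlations of same-numbered deviations in entinostat and DMSO were 0.0532, 0.202 and 0.172 at 24 h and 0.105, 0.0631 and -0.0613 at 48 h. Arrays of unlike number were not compared, so these values cannot decide whether the replicate numbers pair the samples. With a replicate block, 3 passed at 24 h, 7 at 48 h, 7 over both times and 2 for 48 h against 24 h in entinostat, and 0.586% of all probe sets passed for 48 h against 24 h in DMSO. Signals near the array median have little over background, which limits what the dim MSH6 and MSH3 probe sets can show.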
